A study of Mus musculus with 6 samples.

Results

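The replication-independent histone variants studied here were 8 genes, H2afx, H2afz, H2afv, H2afy, H3f3a, H3f3b, H1f0 and H1fx, chosen by symbol from a table of 17169 gene entries. Each of the 8 had exactly 1 entry, and each passed the filter on low values. Levels are in FPKM (fragments scaled by transcript length and by all mapped fragments), and the filter was a mean of 1 FPKM or more over the 6 libraries. They were measured by RNA sequencing in 3 mouse cell lines, BBC, ZNF and BCRF8C. They are SCLL lines, stem cell leukemia and lymphoma, in which a fusion keeps FGFR1 kinase active, and they were established from marrow of diseased Balb/c animals. Treatment lasted 24 h and was BGJ398, an inhibitor of FGFR kinases, or DMSO, its solvent, with 1 library per line and agent. There were thus 3 BGJ398 libraries and 3 DMSO libraries, all from the same strain and culture medium, and no repeat culture of a line. Doses of 30, 3 and 1.5 nM belong to BBC, ZNF and BCRF8C if they are listed in the order of the lines, so that dose and line cannot be told apart. The fusion partner of FGFR1 in each line is not given in the sources used here.

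Nucleosomes are built from core histones H2A, H2B, H3 and H4, and the linker histone H1 binds where DNA enters and leaves. Most histone protein comes from clustered genes without introns, which are transcribed mainly in S phase and whose mRNA ends in a stem-loop in place of a poly(A) tail. Variant genes lie outside the clusters, and most are spliced, polyadenylated and expressed throughout the cell cycle. Their proteins are put into chromatin outside replication by dedicated chaperones, and they mark promoters, DNA breaks or compacted chromatin. H2A.X is an exception among them, since its gene yields a short mRNA with a stem-loop as well as a longer polyadenylated one. The comparison below asks how the levels of the variants differed with FGFR inhibition in each line, beside the clustered genes.

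The whole table differed in scale between agents. The median of the 14232 genes tested was 4.53, 6.47 and 4.92 FPKM in the BGJ398 libraries of BBC, ZNF and BCRF8C, against 9.95, 8.36 and 9.03 FPKM in their DMSO libraries. The ratio also moved with expression level, with higher ratios at low levels than at middle and high levels in all 3 lines. Agent and library cannot be told apart here, so each ratio is also given with the trend on expression removed within the line, which compares a gene with others of like level. Over all genes tested the median log2 ratio was -0.69 for the values as they stand, -0.07 with libraries scaled by the median of ratios, -0.11 with quantile normalization and 0.03 with the trend removed. All 5 blood cell markers (Ptprc, Cd53, Laptm5, Coro1a and Cd52) were above 0 in every library, but some differed widely between lines. With DMSO in BBC, ZNF and BCRF8C, Cd52 stood at 699, 2.48 and 11.2 FPKM and Coro1a at 286, 226 and 1.38 FPKM. Cd53 stood at 152, 3.50 and 179 FPKM, and Ptprc at 86.1, 176 and 95.8 FPKM. Markers of B cells summed to 693 FPKM with BGJ398 and 1384 FPKM with DMSO in BBC but to at most 9.10 FPKM in ZNF or BCRF8C. In ZNF, 4 T cell markers summed to 406 FPKM with BGJ398 and 622 FPKM with DMSO. They summed to 32.8 and 30.8 FPKM in BBC, mostly Lck, and to 8.95 and 3.34 FPKM in BCRF8C. In BBC, ZNF and BCRF8C the sums of 4 stromal and vessel markers were 17.5, 18.5 and 47.5 FPKM with BGJ398, against 15.0, 26.0 and 79.5 FPKM with DMSO. Pecam1, which was lower with BGJ398 in each line, made up most of the DMSO sums. Col1a1 and Col1a2 were higher with BGJ398 in each line. In the same order Col1a1 stood at 4.39, 1.24 and 7.66 FPKM with BGJ398, against 0.941, 0.336 and 0.0109 FPKM with DMSO. Lepr was higher in BBC and BCRF8C and at 0 in ZNF. Of the genes tested, 986 were at 0 in each ZNF library and 684 in each BCRF8C library. In BBC the counts differed, at 233 with BGJ398 and 357 with DMSO. Whether a 0 in ZNF or BCRF8C is a measured level is unknown, and such genes stay in the shares of all genes. The part of these markers in the results was not tested, and in bulk RNA fewer cells of a type and less RNA per cell cannot be told apart.

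Across the 3 lines, 3 of the 8 variants fell with BGJ398 by limma at an adjusted p under 0.05. These were H2afx (H2A.X), H2afz (H2A.Z) and H2afy (macroH2A), and 0 rose. Of all genes tested 36.8% were called, 30.2% lower and 6.61% higher with BGJ398, so the count of 3 members is near the background. In a separate fit of genes of higher level (mean of 5 FPKM or more), where 7 of the 8 members lie, 53.9% of genes fell. In that fit 4 of the 7 members fell. In the fit of all genes the other 5 members did not pass, although 7 of the 8 had an unadjusted p under 0.05, against 54.9% of all genes. Of the 8 members, 7 were lower with BGJ398 in every line, against 55.7% of all genes, and H1fx was not. The median ratio of the 8 members was -1.61, against -0.69 over all genes, and -0.07 against 0.03 with the trend removed. After median-of-ratios scaling, quantile normalization or removal of the trend, 0 members passed, and 4, 3 and 0 genes of the table did (0.0281%, 0.0211% and 0%, with 5756, 3283 and 3084 at an unadjusted p under 0.05). Without the line block 0 members and 0.0492% of genes passed in either direction. Among genes above 0 in all 6 libraries 6 members passed, all lower, against 57.3% of genes in either direction and 44.5% lower. Without BBC, ZNF or BCRF8C the members called were 0, 6 and 1, all lower. In the same order 0%, 34.9% and 11.6% of genes passed in either direction, and 0%, 33.7% and 5.99% were lower. The test compares 3 different lines at what may be 3 doses, so its p-values concern spread between those lines and not between repeat cultures. limma also draws the spread of each gene toward that of genes of like level. The p-values therefore do not follow from the SD over lines printed for a gene.

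**Figure D1:**
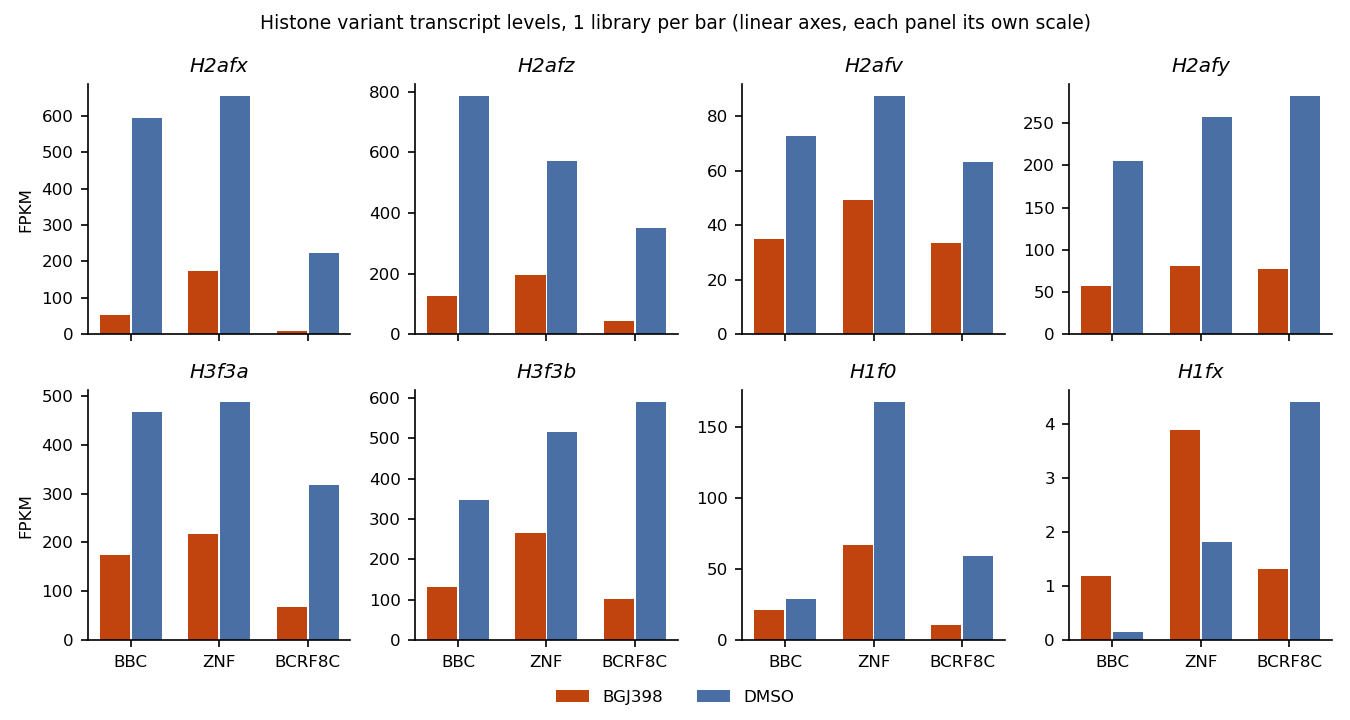
FPKM of each variant gene (vertical axis, linear, own scale per panel) in BBC, ZNF and BCRF8C, with 1 library per bar and no error bar, BGJ398 in orange and DMSO in blue. H2afx, H2afz, H2afv, H2afy, H3f3a, H3f3b and H1f0 were lower with BGJ398 in each line, while H1fx was higher in BBC and ZNF and lower in BCRF8C.

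The order of levels among the variants also differed between agents. Among the BGJ398 libraries an H3.3 gene was highest, H3f3a in BBC (174 FPKM) and H3f3b in the others (265 FPKM in ZNF and 101 FPKM in BCRF8C). Among the DMSO libraries H2afz was highest in BBC at 784 FPKM, H2afx in ZNF at 653 FPKM and H3f3b in BCRF8C at 590 FPKM. H1fx was lowest in all 6 libraries. Averaged over 3 libraries, H3f3b stood at 165 ± 87.1, H3f3a at 153 ± 77.5, H2afz at 122 ± 77.0, H2afx at 79.2 ± 85.5, H2afy at 71.8 ± 12.6, H2afv at 39.1 ± 8.70, H1f0 at 32.8 ± 29.9 and H1fx at 2.14 ± 1.53 FPKM with BGJ398 (SD, n = 3). With DMSO the same genes in order of level were H2afz at 569 ± 217, H2afx at 490 ± 234, H3f3b at 484 ± 125, H3f3a at 424 ± 92.8, H2afy at 248 ± 38.8, H1f0 at 85.3 ± 72.6, H2afv at 74.3 ± 12.1 and H1fx at 2.13 ± 2.15 FPKM (SD, n = 3). Neighbours in the BGJ398 order differed by less than the larger of their SDs, apart from H2afy and H2afv and from H1f0 and H1fx. Neighbours in the DMSO order did so too, apart from H3f3a and H2afy, H2afy and H1f0, and H2afv and H1fx. The SDs of H2afv and H2afy were small beside their means, so the level of either varied little between lines.

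H2afx encodes H2A.X, whose serine near the C-terminus is phosphorylated around DNA double-strand breaks. It lies on chromosome 9 from 44142798 to 44144154 (ENSMUSG00000049932, build NCBIM37, a locus of 1357 bases). H2afx stood at 53.8 (BBC), 175 (ZNF) and 9.39 (BCRF8C) FPKM with BGJ398, against 595, 653 and 223 FPKM with DMSO. It was thus 11.1-fold lower in BBC, 3.74-fold lower in ZNF and 23.7-fold lower in BCRF8C, and all 3 BGJ398 libraries lay below all 3 DMSO libraries. H2afx fell by 3.26 ± 1.28 on the log2(FPKM + 1) scale (SD over 3 lines), with a limma adjusted p of 0.0348. No other variant was as low in ratio, and its rank from the lowest was 76 of 14232 genes. With the trend removed its ratio was -1.63 in BBC, -1.004 in ZNF and -2.72 in BCRF8C. The mean on that scale was -1.78 ± 0.87 (limma adjusted p = 0.156), at rank 173 of all genes. In BCRF8C the BGJ398 library placed H2afx at the 76.1th percentile of levels, against the 97.2th with DMSO. The call was lost without BBC (limma adjusted p = 0.235) and the adjusted p ranged from 0.00204 to 0.235 over the alternatives.

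H2afx was the one variant whose annotated transcript held the stem-loop of replication-dependent histone mRNA. The letters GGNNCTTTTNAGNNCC, where N is any base, were searched on the strand of each transcript of GENCODE vM21. They were present in 1 of 8 variants, in 39 of 59 clustered genes (66.1%) and in 89 of 55450 annotated genes (0.161%). In the H2afx transcript of 1384 bases they span bases 547 to 562, with 822 bases after them. The sequences below show H2afx beside 1 clustered gene of each type, with the stem-loop letters in capitals and 6 flanking bases on each side.
H2afx: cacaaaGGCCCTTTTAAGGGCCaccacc
Hist1h1e: cccaaaGGCTCTTTTCAGAGCCacccac
Hist2h2ac: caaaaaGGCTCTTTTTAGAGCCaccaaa
Hist1h2bb: cccaaaGGCTCTTTTAAGAGCCacccac
Hist1h3b: cccaaaGGCTCTTTTCAGAGCCacccac
Hist1h4d: accaaaGGCCCTTTTCAGGGCCactacc
In all 6 the outer 6 letters on each side are reverse complements, which form the stem. A match of letters is a description of the annotated transcript, and which of the H2afx mRNAs was sequenced cannot be read from a level per gene.

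H2afz encodes H2A.Z, the variant placed at the nucleosomes flanking active promoters by the SRCAP and p400 complexes. It lies on chromosome 3 from 137527451 to 137529886 (ENSMUSG00000037894). H2afz stood at 127 (BBC), 196 (ZNF) and 42.4 (BCRF8C) FPKM with BGJ398, against 784, 572 and 350 FPKM with DMSO. The 2 groups of libraries did not overlap. H2afz fell by 2.39 ± 0.76 (log2, SD over 3 lines, limma adjusted p = 0.0348). With the trend removed the ratios were -0.84, -0.64 and -0.97 in BBC, ZNF and BCRF8C, a mean of -0.82 ± 0.16 (limma adjusted p = 0.192). These 3 values lay close together, and 10.2% of all genes had a mean ratio at or below that of H2afz. The adjusted p ranged from 0.00618 to 0.235 over the alternatives, and the call was lost without BBC (0.235) and without BCRF8C (0.138).

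H2afv encodes the second H2A.Z protein from its own gene, on chromosome 11 from 6327229 to 6344446 (ENSMUSG00000041126). H2afv stood at 34.9 (BBC), 49.1 (ZNF) and 33.3 (BCRF8C) FPKM with BGJ398, against 72.7, 87.2 and 63.1 FPKM with DMSO. The groups did not overlap, and the 3 log2 ratios, -1.04, -0.82 and -0.90, were nearly alike. The mean of -0.92 ± 0.11 did not pass (limma adjusted p = 0.0791). It lay 0.12 below the median of all genes in BBC, 0.45 below it in ZNF and 0.14 below it in BCRF8C. Relative to genes of like level H2afv was higher in each line, at 0.66, 0.07 and 0.80 with the trend removed (mean 0.51 ± 0.38, limma adjusted p = 0.276), and after quantile normalization it averaged 0.37. Its percentile among levels was 93.8 (BBC), 93.4 (ZNF) and 94.3 (BCRF8C) with BGJ398, against 91.7, 93.5 and 90.6 with DMSO. By percentile H2afv was higher with BGJ398 in BBC and BCRF8C and about level in ZNF, and the direction of its ratio depends on the scaling.

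The ratio of the H2A.Z genes within a library needs no scaling factor. H2afz stood 3.64-fold above H2afv with BGJ398 and 10.8-fold above it with DMSO in BBC. It stood 3.99-fold above H2afv with BGJ398 and 6.56-fold with DMSO in ZNF, and 1.27-fold with BGJ398 and 5.54-fold with DMSO in BCRF8C. The ratio was thus lower with BGJ398 in each line, with a mean log2 difference of -1.47 ± 0.71 (SD over 3 lines). In the same way the ratio of H2afx to H2afz was 0.423 (BBC), 0.890 (ZNF) and 0.222 (BCRF8C) with BGJ398, against 0.759, 1.14 and 0.637 with DMSO, with a mean log2 difference of -0.91 ± 0.58. These differences describe 3 pairs of libraries and were not tested.

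**Figure D2:**
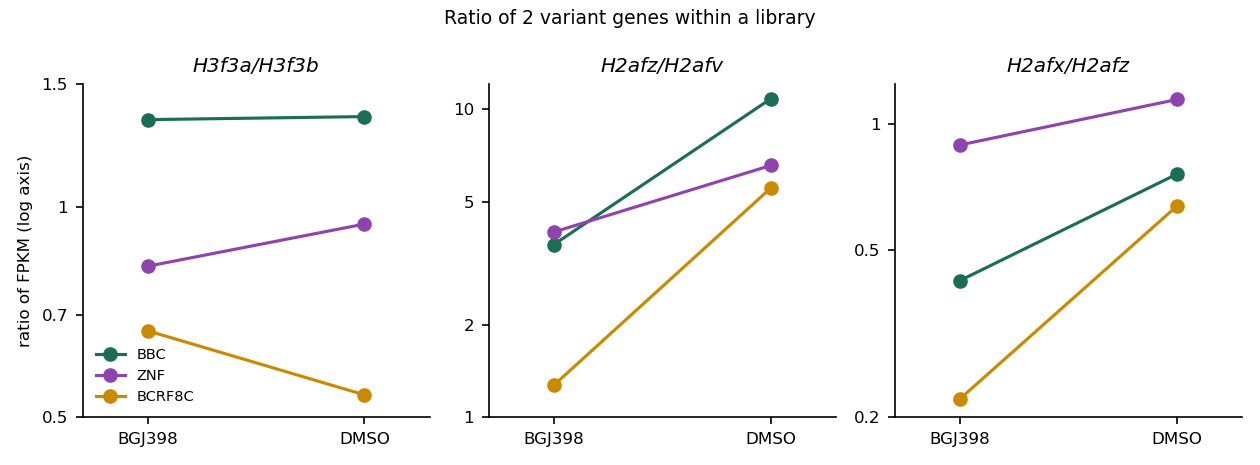
Ratio of the FPKM of 2 variant genes within a library (log axis), with 1 line per cell line joining its BGJ398 library, left, to its DMSO library, right, and no error bars. H2afz/H2afv and H2afx/H2afz were lower with BGJ398 in each cell line, while H3f3a/H3f3b moved little and in different directions.

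The H2A.Z genes have different promoters, and these are shown because the genes that encode nearly the same protein differed in response. Each run below is the 250 bases before the annotated start in RefSeq (GRCm38.p6), with CCAAT or its reverse complement ATTGG in capitals. H2afz lies at chr3:137864237-137864486 on the plus strand, and H2afv at chr11:6444444-6444693 on the minus strand.
H2afz: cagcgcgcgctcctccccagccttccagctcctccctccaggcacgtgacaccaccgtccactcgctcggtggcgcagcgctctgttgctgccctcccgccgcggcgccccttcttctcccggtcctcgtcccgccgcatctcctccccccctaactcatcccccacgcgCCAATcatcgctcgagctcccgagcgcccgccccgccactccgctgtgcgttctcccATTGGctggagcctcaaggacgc
H2afv: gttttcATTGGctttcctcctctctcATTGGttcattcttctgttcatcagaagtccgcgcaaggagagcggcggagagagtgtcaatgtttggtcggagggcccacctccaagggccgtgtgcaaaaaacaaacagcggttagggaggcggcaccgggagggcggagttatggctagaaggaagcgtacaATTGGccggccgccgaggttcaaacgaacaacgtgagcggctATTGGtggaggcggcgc
H2afz held 2 such matches and H2afv 4. CCAAT was present on either strand in 4 of the 7 member promoters of the table, against 34.5% of 27025 promoters of the same length. The table has no entry for H2afx. TATAAA was present in 1 of 7, against 13% of all, and the E2F letters TTTGGCGC in 0 of 7, against 0.437% of all. Letters that rare would be absent from nearly any 7 promoters, and only this exact run was searched. The 0 of 7 therefore does not show whether these promoters hold E2F sites. GGGCGG, the letters of a GC box, was present in 5 of 7, against 32.9% of all. GC made up 71.2% of the H2afz run and 57.2% of the H2afv run.

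H2afy encodes macroH2A, which carries a large domain outside the nucleosome and marks silenced chromatin. It lies on chromosome 13 from 56174980 to 56237722 (ENSMUSG00000015937). H2afy stood at 57.4 (BBC), 81.1 (ZNF) and 76.9 (BCRF8C) FPKM with BGJ398, against 206, 257 and 282 FPKM with DMSO. The groups did not overlap, and the ratios of -1.82, -1.65 and -1.86 were close together. H2afy fell by 1.78 ± 0.11 (log2, limma adjusted p = 0.0349), the smallest spread of ratio of the 8 variants beside that of H2afv. On the scale without the trend the mean was -0.16 ± 0.50 (limma adjusted p = 0.722), and the sign differed between lines at -0.02, -0.72 and 0.25. The adjusted p ranged from 0.0113 to 0.722 over the alternatives, and the call was lost without BBC (0.226) and without BCRF8C (0.153). The gene moved evenly against H2afv across lines, and the ratio of H2afy to H2afv differed by -0.86 ± 0.09 on the log2 scale.

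H3f3a and H3f3b encode the same protein, H3.3, from different genes. H3f3a lies on chromosome 1 from 182730963 to 182746990 (ENSMUSG00000060743), where it overlaps the entries Gm16067 and Gm17275, and H3f3b on chromosome 11 from 115883226 to 115889276 (ENSMUSG00000016559). The table also lists the near-copies H3f3a-ps2, at 0.001 to 24.6 FPKM, and H3f3c, at 0.451 to 6.61 FPKM, and reads that fit several of them make each value uncertain. H3f3a stood at 174 (BBC), 218 (ZNF) and 67.3 (BCRF8C) FPKM with BGJ398, against 467, 488 and 318 FPKM with DMSO. H3f3b stood at 131 (BBC), 265 (ZNF) and 101 (BCRF8C) FPKM with BGJ398, against 346, 515 and 590 FPKM with DMSO. Both genes had BGJ398 libraries below every DMSO library, and BCRF8C had the lowest ratio in each. The mean ratio was -1.60 ± 0.55 for H3f3a (limma adjusted p = 0.0514) and -1.63 ± 0.81 for H3f3b (0.0597), just short of the threshold. On the scale without the trend the means were -0.0026 ± 0.33 and 0.022 ± 0.35, from values of both signs (0.37, -0.26 and -0.12 for H3f3a and 0.41, -0.07 and -0.27 for H3f3b in BBC, ZNF and BCRF8C). Relative to genes of like level both H3.3 genes were thus higher in BBC and lower in ZNF and BCRF8C.

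Within a library the ratio of the H3.3 genes hardly differed between agents. H3f3a over H3f3b was 1.34 (BBC), 0.823 (ZNF) and 0.665 (BCRF8C) with BGJ398, against 1.35, 0.946 and 0.539 with DMSO. The log2 difference was 0.03 ± 0.26, and its sign differed between lines, while the ratio itself was highest in BBC and lowest in BCRF8C with either agent. The promoters of this pair are shown for comparison with the H2A.Z pair, with the same letters and TATAAA in capitals. H3f3a lies at chr1:180813606-180813855 and H3f3b at chr11:116024505-116024754, both on the minus strand of GRCm38.p6 in RefSeq.
H3f3a: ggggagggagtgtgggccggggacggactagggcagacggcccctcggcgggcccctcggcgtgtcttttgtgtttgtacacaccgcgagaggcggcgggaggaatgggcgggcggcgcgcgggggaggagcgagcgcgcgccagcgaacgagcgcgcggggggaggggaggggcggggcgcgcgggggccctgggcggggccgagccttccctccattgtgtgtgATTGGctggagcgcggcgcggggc
H3f3b: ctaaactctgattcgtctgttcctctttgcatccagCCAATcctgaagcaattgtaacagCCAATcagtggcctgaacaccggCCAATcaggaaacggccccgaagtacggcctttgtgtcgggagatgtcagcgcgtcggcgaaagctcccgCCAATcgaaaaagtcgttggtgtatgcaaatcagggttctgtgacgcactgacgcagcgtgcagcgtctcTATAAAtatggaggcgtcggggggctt
H3f3a held 1 match of CCAAT and 0 of TATAAA, and H3f3b held 4 and 1. GC made up 77.2% of the H3f3a run and 54% of the H3f3b run. A match is not a binding site, and the data hold no measurement at these promoters.

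H1f0 encodes the linker histone H1.0, known for accumulating in cells that stop dividing or differentiate. Its locus in the table, on chromosome 15 from 78859152 to 78859689 (ENSMUSG00000048769), spans 538 bases, while the annotated H1f0 transcript of GENCODE vM21, matched by symbol, has 2055 bases. The length that scaled its FPKM is therefore uncertain. This bears on its level, on its values relative to the trend and on its share of H1. It bears little on its ratio of FPKM + 1. H1f0 stood at 20.8 (BBC), 66.8 (ZNF) and 10.8 (BCRF8C) FPKM with BGJ398, against 29.2, 167 and 59.3 FPKM with DMSO. The groups overlap, since ZNF with BGJ398 lay above BBC and BCRF8C with DMSO. The ratios of -0.47, -1.31 and -2.35 gave a mean of -1.38 ± 0.94 (limma adjusted p = 0.0557). Relative to the trend they were 1.03, -0.38 and -0.82, so that H1f0 stood above genes of like level in BBC and below them in ZNF and BCRF8C.

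H1fx encodes H1X, a less studied linker histone. Its locus, on chromosome 6 from 87930416 to 87995264 (ENSMUSG00000044927), spans 64849 bases and overlaps the entries Gm5577 and Rab7, so its value may hold reads of those. H1fx stood at 1.19 (BBC), 3.90 (ZNF) and 1.31 (BCRF8C) FPKM with BGJ398, against 0.147, 1.82 and 4.41 FPKM with DMSO. It was the lowest variant throughout and the only one whose ratio was positive in any line, at 0.94 in BBC and 0.80 in ZNF against -1.23 in BCRF8C. The mean of 0.17 ± 1.21 did not pass (limma adjusted p = 0.803). Genes at this level were widely scattered in each line, as the plot of ratios against expression shows.

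**Figure D3:**
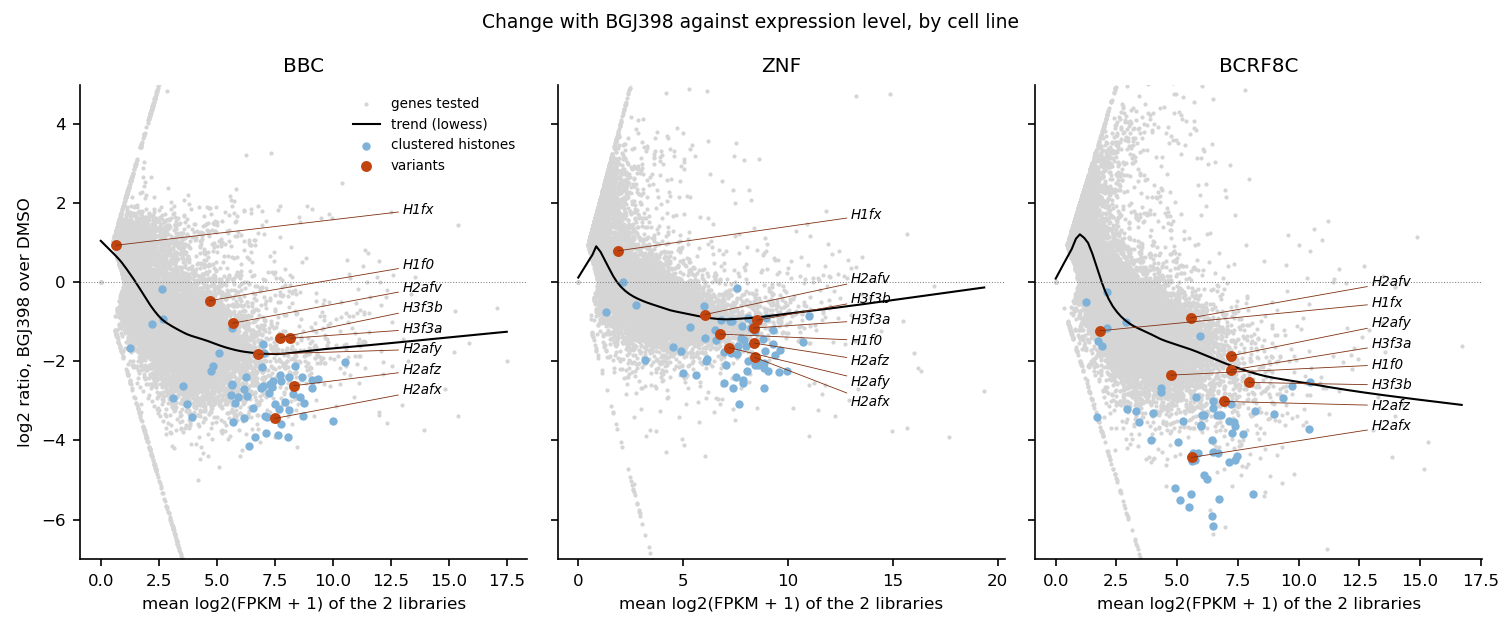
Log2 ratio of FPKM + 1, BGJ398 over DMSO (vertical axis, points beyond the range not drawn), against mean log2(FPKM + 1) of both libraries of a line, with the genes tested in grey, their lowess trend in black, clustered histones in blue and the 8 variants in orange. H2afx lay below the trend, at -1.63, -1.004 and -2.72 relative to it in BBC, ZNF and BCRF8C, among the clustered genes, while H2afv, H3f3a and H3f3b lay near or above it.

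The table held 59 clustered histone genes, of which 58 were tested. Of these, 52 fell (89.7%), against 30.2% of all genes, and 0 rose. By type, 5 of 5 H1, 14 of 14 H2A, 13 of 15 H2B, 9 of 12 H3 and 11 of 12 H4 genes fell, with median log2 ratios of -2.53, -2.65, -2.75, -2.34 and -3.08. Genes within the clusters are so alike in sequence that the level of a single one is uncertain. Their mRNA mostly lacks a poly(A) tail and poly(A) selection is not given, so what part of it was sequenced is unknown. Hist1h1e, a linker histone gene and the highest H1, stood at 213 FPKM in BBC, 365 FPKM in ZNF and 157 FPKM in BCRF8C with BGJ398, against 1372, 1088 and 1601 FPKM with DMSO (mean ratio -2.53 ± 0.89, limma adjusted p = 0.0364). Hist1h2al, the highest H2A, stood at 62.9, 217 and 588 FPKM with BGJ398, against 759, 971 and 3400 FPKM with DMSO (-2.75 ± 0.73, 0.0348). Hist2h2bb and Hist2h3b share 1 locus in the table and had mean ratios of -2.55 ± 1.003 and -2.35 ± 1.03 (0.0459 and 0.0353). Hist1h4d, the highest H4, had a mean of -2.19 ± 1.44 and did not pass (0.0894). With the trend removed the median of the 58 was -1.23, against 0.03 over all genes.

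The variants were set beside the clustered genes on the same scales. Relative to the trend, at least 2-fold lower in every line were 1 of the 8 variants, H2afx, and 13 of the 58 clustered genes (22.4%), against 0.843% of all genes. Lower in every line on that scale were 2 variants, H2afx and H2afz, and 51 clustered genes, against 25.4% of all genes, so the count of variants is at the background. All 3 BGJ398 libraries lay below all 3 DMSO libraries for 6 of the 8 variants and 49 of the 58 clustered genes, against 35.1% of all genes. The gene whose profile over the 6 libraries was nearest to H2afx, among 10938 searched, was the clustered gene Hist1h3c, followed by Hist4h4, at root mean square differences of 0.421 and 0.435 on the log2 scale after centring. For H2afz these were Psmb4 and Grk6 (0.148 and 0.170), for H2afv Taf5 and Alkbh8 (0.0414 and 0.0706), and for H2afy Cenpm and Oxct1 (0.0981 and 0.145). For H3f3a they were Usf1 and Dctn2 (0.102 and 0.131), for H3f3b Acap1 and Cdipt (0.125 and 0.132), for H1f0 Edem1 and Thtpa (0.351 and 0.354), and for H1fx Atg9b and Lrp11 (0.361 and 0.369). The profiles of H2afx, H1f0 and H1fx thus had no neighbour as near as the other 5 had.

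**Figure D4:**
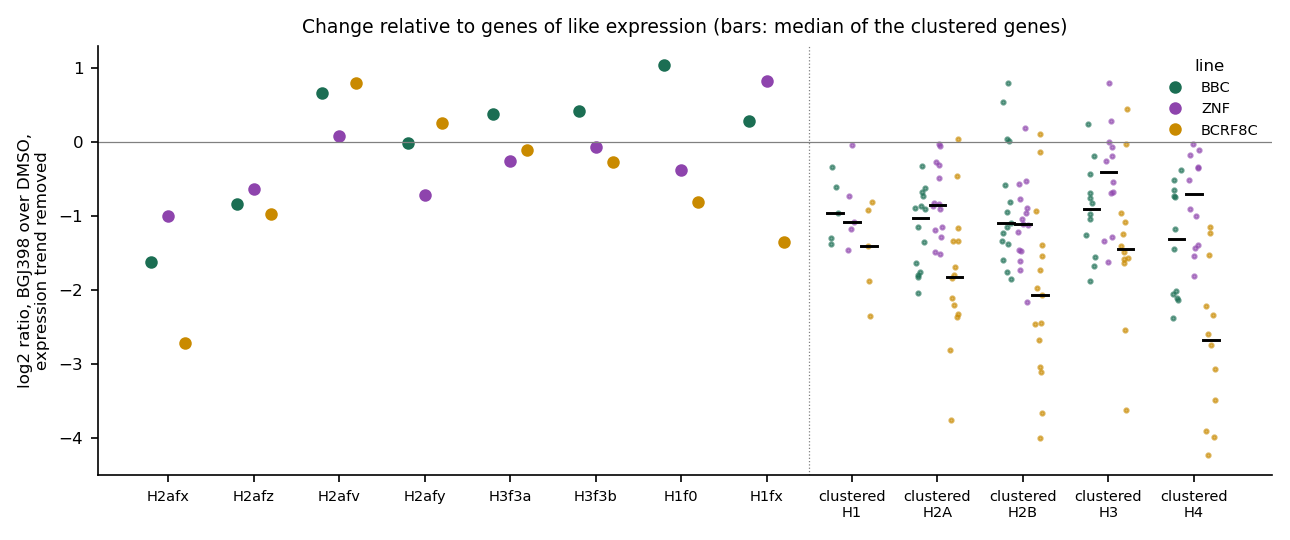
Log2 ratio, BGJ398 over DMSO, with the trend on expression removed (vertical axis), for each variant and for clustered genes by type, in green for BBC, purple for ZNF and orange for BCRF8C, with black bars at the median of the clustered genes. H2afx lay between -2.72 and -1.004 in the 3 lines, H2afz between -0.97 and -0.64, and H2afv above 0.

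Variants of H3 and of H1 made up a larger share of the summed level of their type with BGJ398 in each line. Shares add FPKM of different transcripts and carry no interval, since depth is unknown. Whether poly(A) RNA was selected is not given, and clustered mRNA mostly lacks a poly(A) tail. What part of the clustered mRNA was sequenced is thus unknown. The shares here and for H2A below describe FPKM and not the make-up of histone mRNA in the cells. H3.3 genes were 33.4% (BBC), 24.7% (ZNF) and 34.8% (BCRF8C) of summed H3 with BGJ398, against 16.8%, 20.7% and 20.9% with DMSO. The log2 ratio of H3.3 to clustered H3 was higher in each line, by 1.31, 0.33 and 1.01, a mean of 0.88 ± 0.50 (SD over 3 lines). The linker variants were 3.51%, 5.21% and 5.04% of summed H1 with BGJ398 in the same order, against 0.706%, 3.31% and 2.40% with DMSO, a mean log2 difference of 1.38 ± 0.87. H1f0 supplied nearly all of the variant sum, so the H1 shares carry the uncertain length of H1f0. The difference was largest in BBC, at 2.36. The mean was 0.90 without BBC and 2.31 with medians in place of sums.

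The share of the H2A variants was also higher in BBC and BCRF8C and about level in ZNF. The 4 H2A variants were 31.6% (BBC), 24.0% (ZNF) and 14.0% (BCRF8C) with BGJ398, against 27.4%, 23.9% and 10.8% with DMSO, a mean log2 difference of 0.24 ± 0.21 (0.29, 0.0041 and 0.42 by line). It was 0.15 without BCRF8C and 0.41 with medians in place of sums. Without the highest clustered H2A entry it was 0.31, ranging from -0.096 to 0.85 over the lines. That entry weighs heavily in BCRF8C, where Hist1h2al held 588 of 998 FPKM of clustered H2A with BGJ398 and 3400 of 7573 FPKM with DMSO. The members moved apart within this sum. Relative to summed clustered H2A, H2afx was lower in each line, with a mean log2 difference of -0.82 ± 0.73, and H2afz was close to it at 0.085 ± 0.19. H2afv was higher in each line, by 1.56 ± 0.64, and H2afy was higher in BBC and BCRF8C but not in ZNF, at 0.70 ± 0.62. Without H2afx the mean log2 difference of the H2A type was 0.51. Relative to their own clustered type, H3f3a differed by 0.91 ± 0.59, H3f3b by 0.88 ± 0.44 and H1f0 by 1.32 ± 0.86. None of these differences was tested.

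**Figure D5:**
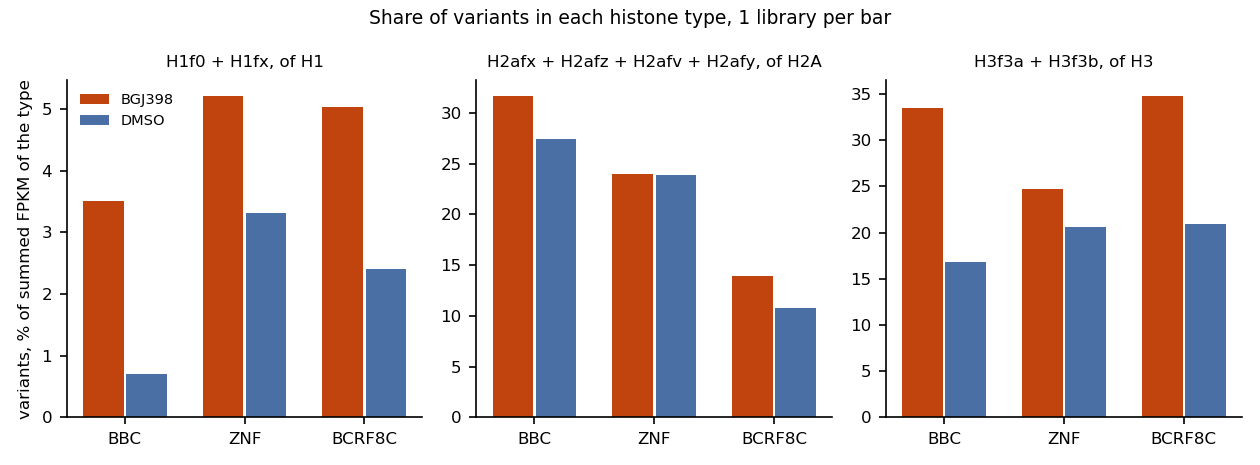
Summed FPKM of the variants as a percentage of all H1, H2A or H3 in the table (vertical axis, from 0), with 1 library per bar, BGJ398 in orange and DMSO in blue. In BBC the H3.3 share was 33.4% with BGJ398 and 16.8% with DMSO, while in ZNF the H2A share was 24.0% with BGJ398 and 23.9% with DMSO.

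Line by line, the median log2 ratio of the variants was -2.29 in BCRF8C, -1.41 in BBC and -1.23 in ZNF, against -0.76, -0.91 and -0.37 over all genes. With the trend removed, the medians of the variants were -0.55 in BCRF8C, 0.33 in BBC and -0.32 in ZNF. Those of all genes were 0.018, 0.017 and -0.0078 in the same order. Relative to genes of like level the median of the variants was thus higher in BBC and lower in BCRF8C and ZNF. At least 2-fold lower with BGJ398 were 7 of the 8 variants in BCRF8C, 6 of the 7 counted in BBC (H1fx averaged under 1 FPKM there) and 5 of 8 in ZNF. The background was 43.5% of genes in BCRF8C, 45% in BBC and 16.3% in ZNF, and 0 variants were at least 2-fold higher on the log2(FPKM + 1) scale, against 21.7%, 8.79% and 13.2% of genes in the same order. With a pseudocount of 0.1 FPKM in place of 1, 1 variant was at least 2-fold higher in ZNF, H1fx, whose FPKM there were 2.14-fold those with DMSO. Lower genes made up 66.7%, 83.6% and 55.3% of those 2-fold apart as deposited, but 38.1%, 31.9% and 35.9% after median-of-ratios scaling and 53.4%, 52.1% and 41.1% after quantile normalization. After quantile normalization 3 variants in BCRF8C, 2 in BBC and 1 in ZNF were at least 2-fold lower, against 21.9%, 18.5% and 5.99% of genes. After median-of-ratios scaling 6 variants in BCRF8C, 2 in BBC and 4 in ZNF were, against 18.6%, 12.6% and 7.81% of genes. H2afx was lower in ratio than every other variant in each of the 3 lines, and ZNF had its smallest difference.

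Of 13 further histone variants listed, 4 had an entry and the other 9 were not analysed here. Cenpa, the centromeric H3, fell with a mean ratio of -1.94 ± 0.48 (limma adjusted p = 0.0348), and H2afj, a replication-independent H2A, with -2.10 ± 1.43 (0.0368). Hist1h2ba, a testis H2B, and H3f3c averaged -0.92 and -1.16 and did not pass (0.0602 and 0.0575). Thus 2 of the 4 fell (50%), against 30.2% of all genes. With the trend removed the order differed, with means of -0.48 for Cenpa, -1.03 for H2afj, -1.16 for Hist1h2ba and -1.49 for H3f3c. On that scale Cenpa was above 0 in BBC (0.22) and H2afj in ZNF (0.06). H3f3c, at 0.451 to 6.61 FPKM, was at least 2-fold lower in every line (-1.39, -1.64 and -1.43 in BBC, ZNF and BCRF8C).

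Genes that handle the variants were described by lists, and by their medians they lay nearer to all genes than the clustered histones did. Of all genes 30.2% fell in the fit that gave these counts, and each count is read beside this share. Among genes at 5 FPKM or more 53.9% fell, but in a separate fit of those genes alone. That share is thus no matching background for the counts. Of 8 genes of H3.3 deposition, 2 fell (25%), no more than the background, and 0 rose, with a median of -1.01 (0.23 with the trend removed). The genes that fell, named after their values were seen, were Hira, a subunit of the HIRA chaperone complex, with a mean ratio of -1.29 ± 0.36 (limma adjusted p = 0.0348), and Daxx, an H3.3 chaperone, with -1.25 ± 0.68 (0.0403). In the same list Dek, an H3.3 chaperone, averaged -1.31, Atrx, a chromatin remodeller acting with Daxx, -0.57, and Asf1a, a histone chaperone, -0.94. Dek, Atrx and Asf1a did not pass, and Ubn2, a HIRA complex subunit, had the highest mean at 0.42. Of 16 genes of H2A.Z exchange, 11 fell and 0 rose, with a median of -1.33 (-0.24 with the trend removed). Anp32e, which removes H2A.Z, Actl6a, an actin-related subunit, and Ruvbl2, an ATPase gene, fell with mean ratios of -1.33, -2.003 and -2.75, while Ep400, the p400 ATPase, averaged -0.29 and did not pass. Of 12 genes of H2A.X signalling at DNA breaks, 8 fell and 0 rose, with a median of -1.06 (-0.04 with the trend removed). Baz1b, a kinase of H2A.X, Mre11a, a nuclease subunit, and Brca1, a repair gene, fell with -1.41, -1.55 and -1.04, while Mdc1, the reader of phosphorylated H2A.X, averaged -0.31 and did not pass. The median of all genes on the scale without the trend was 0.03.

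Genes of replication and of histone mRNA were listed in the same way. With the same background of 30.2% (53.9% in the separate fit of genes at 5 FPKM or more), 23 of 24 S phase genes fell and 0 rose. Their median was -1.80 (-0.49 with the trend removed). Pcna, the sliding clamp, the helicase genes Mcm6 and Mcm7 and the nuclease gene Fen1 fell with -1.83, -2.03, -1.74 and -2.42, while the cyclin gene Ccne2 averaged -0.59 and did not pass. Of 12 replication-coupled chaperones, 10 fell and 0 rose, with a median of -1.71 (-0.30). Ssrp1, a FACT subunit, Rbbp7, a histone-binding subunit of several complexes, and Asf1b, a histone chaperone, fell with -1.92, -2.10 and -2.23. Nap1l1 and Tonsl averaged -1.46 and -0.89 and did not pass. Of 14 genes of histone mRNA processing, 10 fell and 0 rose, with a median of -1.35 (-0.24). Srrt, which links the mRNA cap to processing, fell, at 12.6, 24.6 and 11.2 FPKM with BGJ398 in BBC, ZNF and BCRF8C, against 80.4, 59.7 and 53.9 FPKM with DMSO. Cstf2, a cleavage factor gene, fell with -1.31, while Slbp, the stem-loop binding protein, averaged -1.30 and Zfp473 -0.096, and neither passed. H2afx with the trend removed, at -1.78, lay below the lowest of these 3 lists, which was -1.13 for Fen1. The part of S phase gene levels in the result for H2afx was not tested.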

How the data were processed

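RNA of 6 cultures was sequenced, and the authors deposited 1 table of FPKM for 17169 gene entries with 6 columns, each matching 1 sample title. The submitters' processing notes name TopHat2 2.0.12, bcl2fastq and the build NCBIM37. How FPKM was estimated, from which annotation and with which filters, strand setting and poly(A) selection is not given in the sources used here. Low values showed no steps of whole reads (at most 11.5% lay within 0.05 of a whole multiple), so the depth is unknown and no counting interval is given. Of all entries, 548 share a symbol with another, and the entry of highest mean stood for a symbol.

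Values were analysed as log2(FPKM + 1), with pseudocount 1. The 14232 genes whose mean over the 6 libraries reached 1 FPKM were tested with limma 3.58.1 in R 4.3.3 (lmFit, then eBayes with its trend option) for BGJ398 over DMSO, blocked by line, two-sided, with Benjamini-Hochberg adjustment over all genes and a threshold of 0.05. Adjusted p-values in parentheses come from that fit. The block left 2 residual degrees of freedom. The pairing follows from the line that the 2 libraries share, and deviations of a pair from their group means correlated at 0.454, 0.541 and 0.549, against -0.358 to -0.179 for libraries of different lines. Ratios within a line had no test and were counted at 2-fold. The trend was a lowess curve with span 0.3, subtracted within each line. Sequences were read from GENCODE vM21 transcripts and from RefSeq promoters of GRCm38.p6. Table identifiers matched GENCODE vM21 for 7 of 8 members and 49 of 59 clustered genes, and the others matched by symbol. Coordinates of loci are those of the table in NCBIM37.

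The members and all lists were chosen with earlier results of these data known. Named were all 8 members, the clustered gene of highest mean per type, in each list the 3 genes of highest mean and those with the lowest and highest ratio, and for each member the 2 genes of nearest profile. Alternatives were other pseudocounts (0.1 and 5), other filters, 3 other scalings, no replicate block, and leaving out each line. The analysis used Python 3.11.15, pandas 2.3.3, numpy 2.4.6 and matplotlib 3.10.9.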

Additional observations from a re-analysis of the deposited data

Results flagged for a closer look

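H1fx was higher with BGJ398 in BBC and ZNF, with log2 ratios of 0.94 and 0.80, and lower in BCRF8C, with a ratio of -1.23. It drew attention because the lines moved in opposite directions, and the difference between lines was not tested. Its highest level in any library was 4.41 FPKM, and its locus overlaps those of Gm5577 and Rab7.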

How the results depend on the processing

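As deposited, 5236 genes and 3 of the 8 variants passed. With median-of-ratios scaling 4 genes passed, with quantile normalization 3 and with the trend removed 0 (3084 at an unadjusted p under 0.05), and 0 variants passed under any of these. Without the replicate block 7 genes and 0 variants passed. Over the fits that leave out a line, 0 to 4974 genes and 0 to 6 variants passed: without BBC 0 genes and 0 variants, without ZNF 4974 and 6, without BCRF8C 1648 and 1. Among genes above 0 in all 6 libraries, 6 variants passed. Over the refits of single variants, 63 kept direction and side of the threshold, 17 lost the call, 8 gained it and 7 changed sign. Those 7 were H2afv with quantile normalization (0.37) and the trend removed (0.51), H3f3b with the trend removed (0.022), and H1fx with quantile normalization (-0.35), the trend removed (-0.084), without BBC (-0.22) and without ZNF (-0.15; 0.87 without BCRF8C), and the cause was not tested. Quantile normalization left 4609 genes 2-fold apart in BBC (7935 as deposited), 1891 in ZNF (3655) and 5538 in BCRF8C (9012). Medians in place of sums gave 2.31 in place of 1.38 for H1, and leaving out H2afx gave 0.51 in place of 0.24 for H2A. With H1fx and H1f0, low or poorly defined loci limit precision, and depth limits all values to an unknown degree.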
